A study of Mus musculus with 16 samples.

Results

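To describe how the genes of the cytosolic ribosome were marked in young and aged hematopoietic stem cells (HSCs), the promoters of 80 cytosolic ribosomal protein genes, out of 21851 protein-coding genes, were examined in ChIP-seq peak lists of 3 histone marks. The genes were chosen by symbol alone (Rps, Rpl or Rplp followed by a number, without the Rps6k kinases) in the GENCODE M21 annotation of the mm10 mouse genome. Of these, 30 encode proteins of the small subunit, 47 proteins of the large subunit and 3 the stalk proteins. Young HSCs came from C57BL/6 mice of 10 weeks and aged HSCs from C57BL/6 mice of 20 months. Both were isolated from bone marrow by the same surface markers (positive for Sca-1, c-kit and CD150, negative for IL-7Rα, lineage markers, CD34, CD48 and Flt3). No allele or treatment set the groups apart. Per the study's methods the mice were female. H3K4me3, H3K27me3, H2AK119ub1 and input chromatin were each sequenced in 2 libraries per age, 16 libraries in all. What was deposited for peaks was 1 list per mark and age, 6 lists in all, so every count below comes from 1 list with no replicate, and the changes between ages have no test. The lists are named as pooled, but the peak names cite a pair of library numbers for H3K4me3 and a single one for H3K27me3 and H2AK119ub1, so how many libraries stand behind the latter is unsure. A gene counted as marked when a listed peak touched the interval from 1 kb before to 1 kb after a start of any of its protein-coding transcripts.

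Ribosomal proteins assemble with ribosomal RNA into the small subunit, which reads the mRNA, and the large subunit, which joins the amino acids. Their genes are transcribed in nearly every cell, and their mRNAs typically start with a C followed by a run of pyrimidines, the terminal oligopyrimidine (TOP) tract through which mTOR signalling controls their translation. H3K4me3 is a mark of the promoters of active and poised genes, whereas H3K27me3 and H2AK119ub1 are set by the Polycomb complexes PRC2 and PRC1 at repressed genes. HSCs are known for a low rate of protein synthesis, and loss of 1 copy of a ribosomal protein gene causes Diamond-Blackfan anemia in humans.

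The promoters are shown first for genes of each H3K4me3 pattern, from 60 bases before to 20 bases from the start. They were taken from the RefSeq promoter table (GRCm38.p6, the same assembly as mm10), which held 60 of the 80 genes. Capitals mark the TOP tract found within 3 bases of the RefSeq start, and the genes were chosen after their values were seen, to show the patterns and the presence or absence of the tract.
Rpl34, chr3:130730379-130730458, minus strand, H3K4me3 at both ages: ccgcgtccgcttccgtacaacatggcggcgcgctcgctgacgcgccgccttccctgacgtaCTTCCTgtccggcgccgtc
Rpl7a, chr2:26910747-26910826, plus strand, H3K4me3 at both ages: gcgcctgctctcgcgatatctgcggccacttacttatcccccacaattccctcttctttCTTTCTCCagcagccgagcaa
Rplp2, chr7:141447591-141447670, plus strand, H3K4me3 at both ages: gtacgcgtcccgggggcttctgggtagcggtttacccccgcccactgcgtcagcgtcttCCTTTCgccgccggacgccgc
Rps21, chr2:180257319-180257398, plus strand, H3K4me3 at both ages and an aged H2AK119ub1 region: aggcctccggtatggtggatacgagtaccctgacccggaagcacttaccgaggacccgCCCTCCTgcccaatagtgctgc
Rpl38, chr11:114668520-114668599, plus strand, H3K4me3 in the young list only: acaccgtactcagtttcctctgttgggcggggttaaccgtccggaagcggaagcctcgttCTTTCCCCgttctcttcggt
Rps27, chr3:90213629-90213708, minus strand, H3K4me3 in the aged list only: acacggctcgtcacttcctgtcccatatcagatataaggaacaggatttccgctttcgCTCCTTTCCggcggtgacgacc
Rps27l, chr9:66946026-66946105, plus strand, a paralog of Rps27 with H3K4me3 in the aged list only: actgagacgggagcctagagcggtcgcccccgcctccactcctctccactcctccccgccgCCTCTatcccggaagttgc
Rps6, chr4:86857348-86857427, minus strand, H3K4me3 in neither list: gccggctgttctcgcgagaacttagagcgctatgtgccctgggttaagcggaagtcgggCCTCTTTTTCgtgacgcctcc
Rpl3l, chr17:24727766-24727845, plus strand, a muscle paralog of Rpl3 with H3K4me3 in neither list and no tract: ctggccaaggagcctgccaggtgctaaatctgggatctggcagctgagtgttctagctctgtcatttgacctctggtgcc

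A tract of a C and at least 4 further pyrimidines was sought, allowing the annotated start to be off by up to 3 bases. It stood at any RefSeq start of 24 of the 60 genes (40%, 95% Wilson interval 28.6 to 52.6) and of 13.4% of the 16515 protein-coding genes in the table. At the GENCODE start of the principal transcript it was found in 19 of 80 genes (23.8%) and in 11.2% of all genes. The nearest RefSeq start lay within 3 bases of the GENCODE start for 18 of the 60 genes, so the tract depends on which start is used. The RefSeq and GENCODE shares also differ in how many starts of a gene were tried and in the genes covered. In the 300 bases around the GENCODE start (250 before, 50 from it), both strands searched, CCGGAAG, the core recognised by ETS factors, occurred in 22 of 80 genes (27.5%) and 11.2% of all genes. AANATGGCG, the YY1 motif, occurred in 7 of 80 (8.75%) and 3.17% of all genes, and GGGCGG, bound by SP and KLF factors, in 40 of 80 (50%) and 45.5%. TATAAA on the sense strand between 50 and 15 bases before the start occurred in 1 gene, Rps28 (1.25%), and in 3.13% of all genes. The median ratio of observed to expected CpG was 0.836 for the ribosomal protein genes, 0.557 for all genes and 0.784 for all genes with H3K4me3 at either age. The muscle paralog Rpl3l had a CpG ratio of 0.09.

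The H3K4me3 lists held 11371 peaks in young and 6723 in aged HSCs, with folds of 2.17 to 8.08 and 1.67 to 7.52. A fold here is the caller's enrichment of the reads piled up at a peak's summit over the local background, with 1 added to each. The whole numbers of reads and the backgrounds could be recovered from the fold and the p-value of every H3K4me3 peak. The median peak was 20 reads high in young and 19 in aged HSCs, and the lowest background was 3.70 and 3.52 reads. Library totals were not part of the lists, so depth per library is unknown. As a check of the cells, 7 of 10 HSC marker genes had promoter H3K4me3 in each list, among them Hlf, Mecom, Meis1, Procr and Runx1 at both ages, while Slamf1 and Ly6a had none. Of 15 markers of B, T, erythroid, myeloid and megakaryocytic cells, 2 were marked in the young list, among them Epor (4.25-fold), and none in the aged list.

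In young HSCs, 51 of the 80 ribosomal protein genes carried promoter H3K4me3 (63.8%, 95% Wilson interval 52.8 to 73.4), against 33.8% of all protein-coding genes. In aged HSCs 36 did (45%, 34.6 to 55.9), against 23.3% of all genes. Both shares lay above those of all genes, and the share was lower in the aged list for the ribosomal protein genes and for all genes. The mark was listed at both ages for 26 genes (32.5%, against 17.5% of all genes). It was in the young list only for 25 (31.2%, all genes 16.3%) and in the aged list only for 10 (12.5%, all genes 5.78%). It was listed at neither age for 19 (23.8%, all genes 60.4%). Of the 51 genes marked in young HSCs, 26 were also marked in aged HSCs (51.0%, 37.7 to 64.1), and the share for all genes was 51.8%. Of the 36 marked in aged HSCs, 26 were marked in young HSCs (72.2%, 56 to 84.2), against 75.2%. Overlap between the ages was thus close to that of all genes in both directions. When the young list was shortened to the 6723 peaks with the highest −log10 q, the length of the aged list, 41 ribosomal protein genes remained marked in young against 36 in aged HSCs, and all genes stood at 23.4% and 23.3%. The difference of 15 genes between the ages was then 5.

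**Figure D1:**
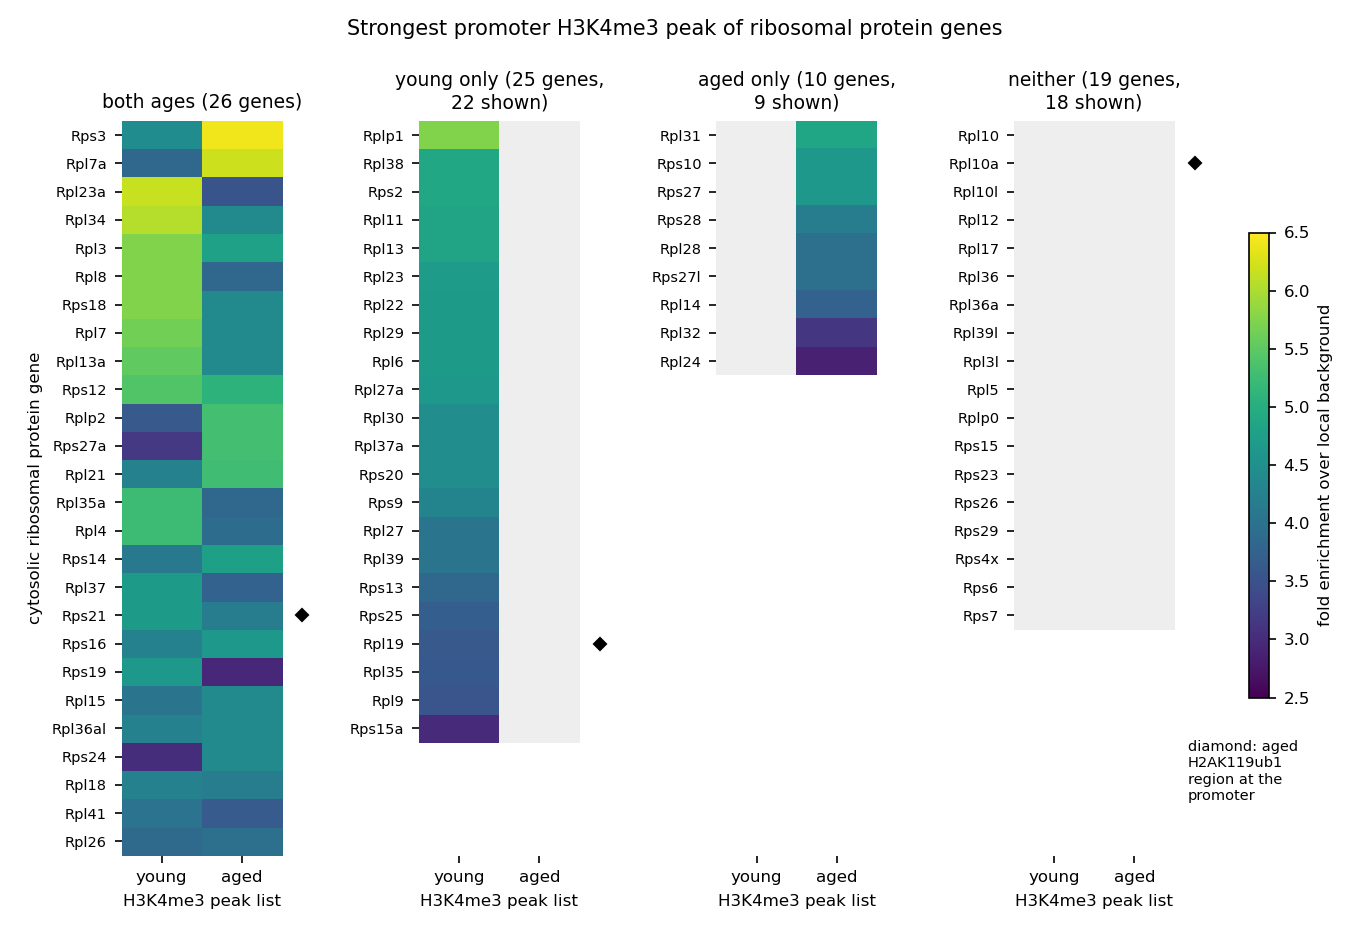
Fold enrichment (colour) of the strongest promoter H3K4me3 peak of 75 of the 80 ribosomal protein genes (rows) by list (columns, young and aged), in 4 blocks by the lists that held a peak. Grey means no listed peak, a diamond an aged H2AK119ub1 region at the promoter, and within the 26 genes marked at both ages either column can be the higher one.

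Among genes of the small subunit, 17 of 30 were marked in young (56.7%) and 14 in aged HSCs (46.7%), with 9 at both ages. Among those of the large subunit the counts were 32 of 47 (68.1%) and 21 (44.7%), with 16 at both ages. The intervals of the subunits overlapped at each age. By number of annotated starts, the mark was listed for 31 of 46 genes with several starts (67.4%) against 20 of 34 with 1 start (58.8%) in young and 25 (54.3%) against 11 (32.4%) in aged HSCs, and the corresponding shares of all genes were 38.5% against 28.8% and 26.9% against 19.5%. Of the stalk proteins, which recruit the elongation factors, Rplp2 was marked at both ages, Rplp1 in the young list only and Rplp0 at neither age.

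**Figure D2:**
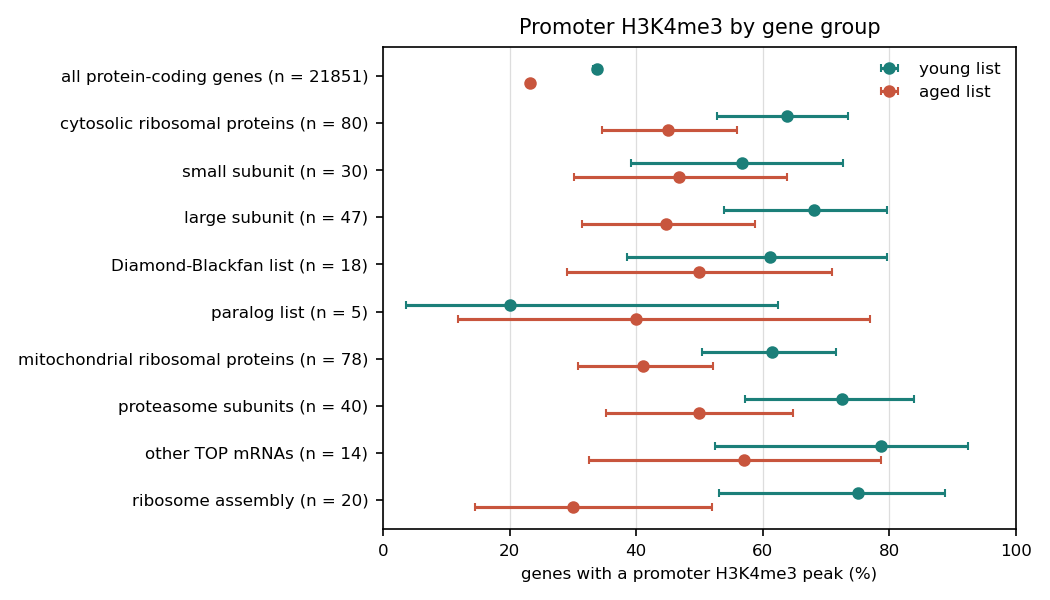
Share of genes with a promoter H3K4me3 peak (x axis, percent) by gene group (y axis, with the number of genes) in the young and aged list, with bars for 95% Wilson intervals, which cover counting error only. The ribosomal protein genes stand at 63.8% and 45%, all protein-coding genes at 33.8% and 23.3%, and the aged share is the lower one in each group except the 5 paralogs.

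The strongest promoter peak of a marked ribosomal protein gene had a median fold of 4.46 in the young list (95% interval of the median 4.25 to 4.68, 51 genes) and 4.42 in the aged list (3.98 to 4.64, 36 genes). All marked genes stood at 4.25 and 4.20. The peaks of a gene summed to a median of 422 bp in young and 327 bp in aged HSCs, beside 412 and 321 bp for all marked genes. Marked ribosomal protein genes were therefore near all marked genes in height and width at each age. For the median gene the summit held 21 reads in young and 19 in aged HSCs, with ranges of 16 to 32 and 15 to 28. The background was at the lowest value of the list for 29 of 51 genes in young (56.9%, all marked genes 43%) and 26 of 36 in aged HSCs (72.2%, all marked genes 67.4%), so that many peaks shared a fold.

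The highest −log10 q in the young list belonged to genes of the large subunit. Rpl34 reached 6.05-fold (−log10 q 10.38) and Rpl23a, whose protein lies at the exit of the peptide tunnel, 6.16-fold (10.31). In the aged list Rpl34 had a fold of 4.42 and Rpl23a of 3.54. The highest in the aged list were Rps3, a small subunit protein at the mRNA entry channel, with 6.41-fold (9.91), Rpl7a with 6.19-fold (9.37) and Rps14, the gene of the ribosomal defect in human myelodysplasia with loss of part of a chromosome arm, with 4.78-fold (7.49). Their young folds were 4.44, 3.83 and 4.11. No gene was among the highest 3 at both ages.

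At the lower end of the young list stood Rps24 (3.03-fold, −log10 q 2.80) and Rps15a (2.98-fold, 2.99). The lowest in the aged list were Rps19, the gene most often mutated in Diamond-Blackfan anemia (2.96-fold, 1.93), Rpl24 (2.87-fold, 2.29) and Rpl32 (3.13-fold, 2.36). Of these genes, Rps24 and Rps19 were marked at both ages.

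Among the 26 genes marked at both ages, the fold was higher in the aged list for 11 and lower for 15, and for all 3825 such genes it was higher for 48.2%. The reads behind the widest gaps show how few they were. Rpl23a rested on 28 reads in young HSCs (exact Poisson 95% interval 18.6 to 40.5) and 15 in aged HSCs (8.4 to 24.7), on backgrounds of 3.70 and 3.52 reads. Rpl7a rested on 17 reads in young (9.9 to 27.2) and 27 in aged HSCs (17.8 to 39.3). For both genes the intervals of the ages overlapped, and they cover counting error only, since there is no replicate list. Rps27a, which is made as a fusion with ubiquitin, had 3.17-fold in young and 5.31-fold in aged HSCs, and Rps19 had 4.64-fold and 2.96-fold. At Rpl7a and Rps19 the young and aged peaks shared no base, so these values compare different sites of the promoter.

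**Figure D3:**
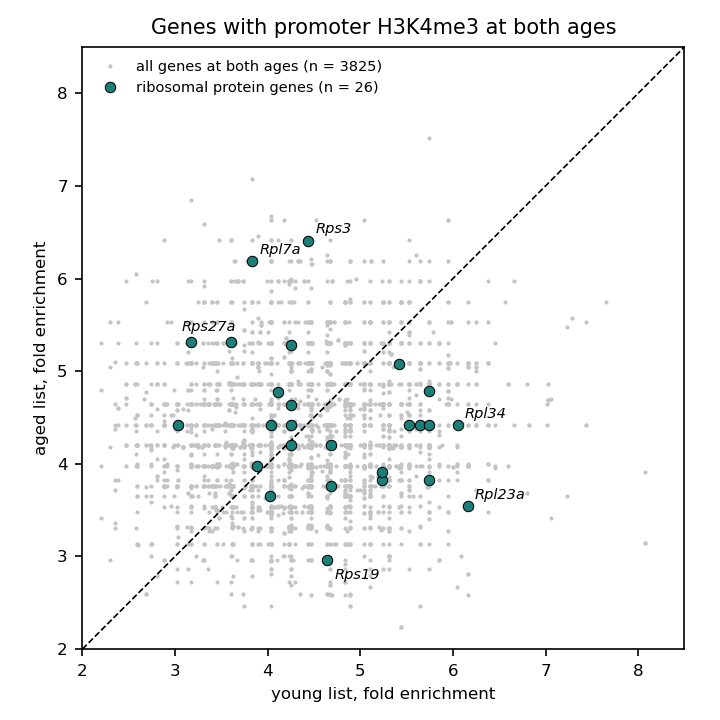
Fold enrichment of the strongest promoter H3K4me3 peak in the young list (x axis) and the aged list (y axis) for the 26 ribosomal protein genes marked at both ages (large points) and all 3825 genes marked at both ages (small points). The dashed line is equality, 11 ribosomal protein genes lie above it and 15 below, and rows and columns of points come from whole reads over the lowest background.

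Among genes marked in 1 list only, Rplp1 (5.74-fold, −log10 q 9.02) and Rpl23 (4.69-fold, 7.20) were near the top of the 25 of the young list. The 10 of the aged list were led by Rpl31 (4.86-fold, 5.83), Rps10 (4.64-fold, 5.27) and Rps27 (4.64-fold, 5.27), and the others included Rpl14, Rpl24, Rpl28, Rpl32, Rps27l and Rps28. Genes marked only in young HSCs had a median fold of 4.46, those marked only in aged HSCs 4.09, and for those marked at both ages it was 4.54 (young) and 4.42 (aged).

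Most peaks flanked the starts. A peak covered a start site of 10 of 51 marked genes in young (19.6%, all marked genes 19.8%) and 6 of 36 in aged HSCs (16.7%, all 16.9%). The summit of the strongest peak lay inside the gene, downstream of the nearest start, for 36 of 51 (70.6%) and 25 of 36 (69.4%), beside 67.4% and 66.9% of all marked genes. Its median position was 196 bp downstream in young and 165 bp in aged HSCs. Of the 26 genes marked at both ages, 21 (80.8%, all genes 80.4%) had young and aged peaks that shared at least 1 bp. Over the 26 genes the median gap between the closest young and aged summits was 190 bp (interval of the median 65 to 297). The 107 bp of all genes lay within that interval. The 5 without a shared base were Rpl36al, Rpl7a, Rplp2, Rps16 and Rps19. At Rpl7a the young summit lay 951 bp inside the gene and the aged summit 412 bp before its start, a gap of 1363 bp.

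**Figure D4:**
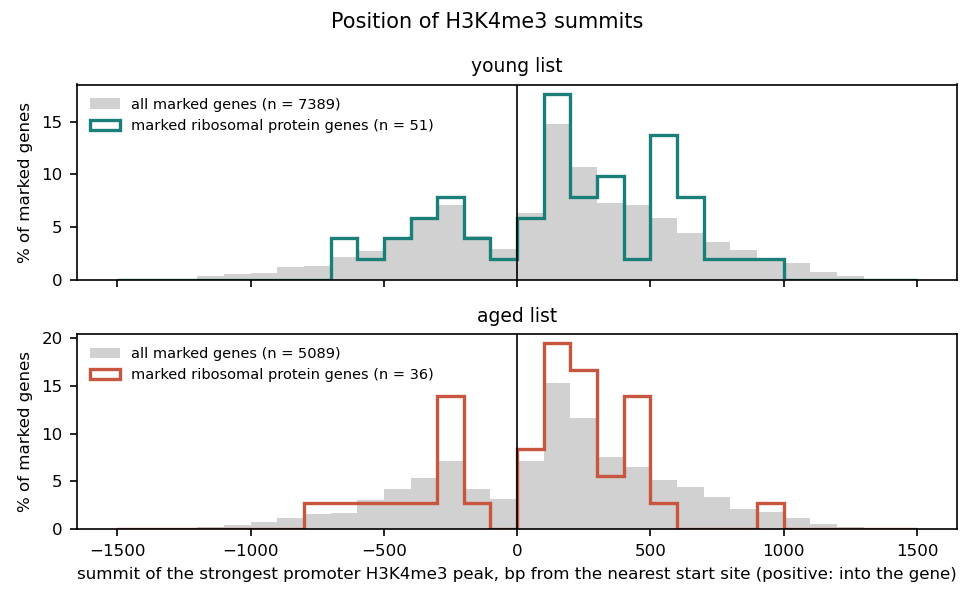
Position of the summit of the strongest promoter H3K4me3 peak from the nearest start site (x axis, bp, positive into the gene) as the percent of marked genes per 100 bp (y axis), for the ribosomal protein genes (line, 51 young and 36 aged) and all marked genes (filled). Most summits lie downstream of the start at both ages, 70.6% and 69.4% for the ribosomal protein genes.

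More than 1 promoter peak was listed for 11 of 51 genes in young (21.6%, all marked genes 32.2%) and 8 of 36 in aged HSCs (22.2%, all 20.5%). The widest marking over both ages was that of Rps3 (1617 bp in sum), Rps27a (1403 bp) and Rps12 (1309 bp). Rps3 had 1 peak of 893 bp in young and 1 of 724 bp in aged HSCs, whereas Rps12 went from 345 bp to 964 bp. A peak was also at the promoter of another protein-coding gene for 11 of 51 (21.6%, all 23.1%) and 13 of 36 (36.1%, all 24.1%). Such neighbours were shared at both ages by Rpl15 with Nkiras1, Rpl18 with Sphk2, Rpl35a with Iqcg, Rpl36al with Mgat2, Rpl4 with Zwilch, Rpl41 with Zc3h10, Rpl7a with Med22, Rps18 with Vps52 and Rps27a with Clhc1, and a peak there cannot be given to 1 of the genes.

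The 19 genes with H3K4me3 at neither age were far from any listed peak. The smallest gap between one of their starts and a peak was 3318 bp, at Rpl36 in the aged list, and no ribosomal protein gene had its nearest peak between 1 kb and 3 kb from a start in either list. Of all genes beyond 1 kb, 2.75% lay in that span in young and 2.09% in aged HSCs. The genes just inside the limit were Rpl7a (830 bp) in young and Rps19 (820 bp) and Rps14 (524 bp) in aged HSCs, and those just outside it Rpl3l (3482 bp) in young and Rpl36 (3318 bp) and Rpl3l (3476 bp) in aged HSCs.

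Genes without a listed peak included Rplp0, the core of the stalk (nearest peak 16384 bp in young and 16648 bp in aged HSCs), and Rps6, the substrate of the S6 kinases (17463 and 29038 bp). Rpl5, whose protein binds Mdm2 when assembly fails, was 86138 and 87328 bp from a peak. The gaps were 5015 and 5564 bp for Rpl12, 5601 and 5437 bp for Rpl17, 8965 and 9230 bp for Rps29, 13020 and 3318 bp for Rpl36, and 14390 and 14526 bp for Rpl10a. They exceeded 10 kb in both lists for Rps15, Rps26, Rps7, Rps23, Rps4x, Rpl10, Rpl36a, Rpl39l and Rpl10l. The list thus held genes of both subunits and the stalk. Absence from a list says that no peak passed the caller's threshold, and not that the mark was absent.

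**Figure D5:**
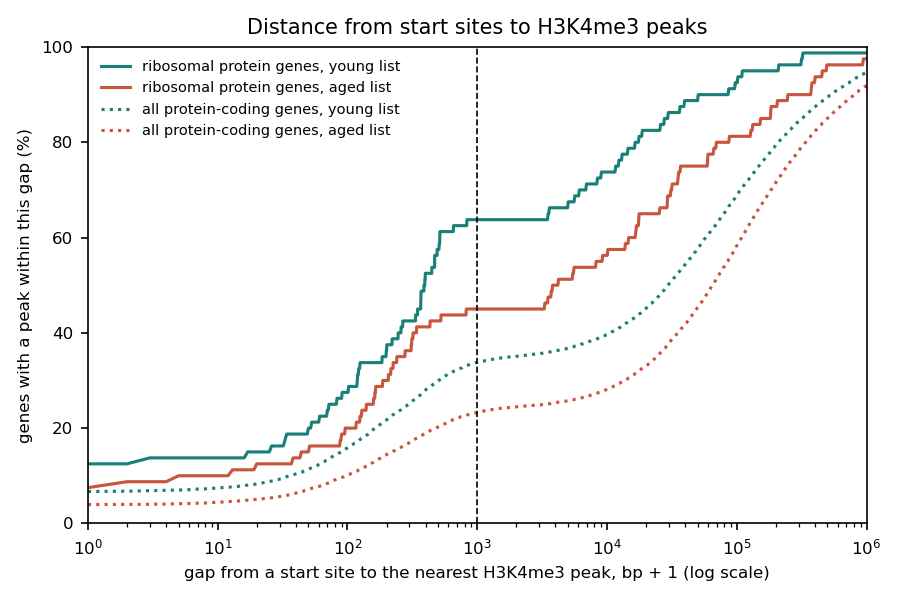
Percent of genes (y axis) with an H3K4me3 peak within a given gap of a start site (x axis, bp plus 1, log scale), for the 80 ribosomal protein genes (solid) and all protein-coding genes (dotted) in each list. The dashed line is the 1 kb limit, past which the ribosomal protein curves stay level, at 63.8% and 45%, until 3 kb.

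The X chromosome holds 4 of the 80 genes. Rpl39 was marked in the young list (4.04-fold, −log10 q 4.22), whereas Rpl10, Rpl36a and Rps4x were marked in neither. Among all 948 genes on the X, 6.75% were marked in young and 2.95% in aged HSCs, beside 35.4% and 24.4% of autosomal genes. On the autosomes 50 of 76 ribosomal protein genes (65.8%) and 36 (47.4%) were marked. The Wilson intervals of the 4 X-linked genes, 4.56 to 69.9% in young and 0 to 49% in aged HSCs, held these shares. So 4 genes cannot show whether their share was low.

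Of 18 genes on a fixed list of those mutated in Diamond-Blackfan anemia, which need not be complete, 11 were marked in young and 9 in aged HSCs. The mark was listed at both ages for Rps19, Rps24, Rpl35a, Rpl26, Rpl15 and Rpl18, and in the young list only for, among others, Rpl11 (4.84-fold), which acts with Rpl5 on Mdm2, Rpl27 (4.04-fold), Rpl35 (3.60-fold) and Rps15a. Rps10, Rps27 and Rps28 (4.20-fold) were marked in the aged list only, and Rpl5, Rps26, Rps7 and Rps29 in neither. Rps24 had 3.03-fold in young and 4.42-fold in aged HSCs, and Rpl35a 5.24-fold and 3.83-fold. Rpl26 (3.89-fold and 3.98-fold), Rpl15 (4.04-fold and 4.42-fold) and Rpl18 (4.25-fold and 4.20-fold) were nearer to equal. The shares, 61.1% and 50%, had intervals (38.6 to 79.7 and 29 to 71) that held those of the 80 genes.

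Of the 5 duplicates or tissue-restricted paralogs, 1 was marked in young and 2 in aged HSCs. The muscle gene Rpl3l and the testis genes Rpl10l and Rpl39l had no listed peak, and for Rpl10l the nearest peak was 1111810 bp away in young and 937357 bp in aged HSCs. Rpl36al, a close copy of Rpl36a, was marked at both ages (4.25-fold and 4.42-fold), whereas Rpl36a itself was marked in neither. Rps27l, a copy of Rps27 induced by p53, was marked in the aged list only (3.98-fold), like Rps27. Without the paralogs, 50 of 75 genes (66.7%) were marked in young and 34 (45.3%) in aged HSCs.

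Neither Polycomb mark was common at these genes. H3K27me3 touched the promoter of 0 of 80 genes in young HSCs (all genes 16.0%) and 0 of 80 in aged HSCs (all genes 8.24%), where a count of 0 allows a share of up to 3.75%. The nearest region was 2059 bp from Rpl26 in young and 2710 bp from Rpl17 in aged HSCs. The median gap to one was 38742 bp in young HSCs (interval of the median 27642 to 79713). In aged HSCs it was 113303 bp (67876 to 154665). The medians of all genes, 57662 and 138841 bp, were larger but lay within these intervals, so the gaps do not set the ribosomal protein genes apart. The lists held 63142 regions in young and 20419 in aged HSCs, and the gaps were not compared at equal list length.

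H2AK119ub1 touched 0 of 80 promoters in young HSCs (all genes 1.91%) and 4 of 80 in aged HSCs (5%, 95% Wilson interval 1.96 to 12.2, all genes 14.0%). The young count of 0 allows a share of up to 3.75%, so it does not set these genes apart from all genes. The lists differed in length, with 2593 regions in young and 17768 in aged HSCs. Among the 4 genes were Rps21, Rpl19 and Rpl10a. At Rps21 the region was 259 bp long (chr2:180256507-180256765), had 3.37-fold and −log10 q 1.93, lay 741 bp before the start by its centre and touched no annotated gene. At Rpl19 it was 293 bp long (chr11:98025897-98026189), had 3.25-fold and 1.77, lay 667 bp before the nearest start and fell in an intron of the noncoding gene Gm11629. At Rpl10a it was 366 bp long (chr17:28327528-28327893), had 3.03-fold and 1.28, lay 760 bp before the nearest start and overlapped an exon of a noncoding gene transcribed from the opposite strand. None of the 4 regions covered a start, the nearest edge was 521 bp away at Rpl19, and none passed a −log10 q of 4 or lay within 500 bp. With the aged list cut to the length of the young list by −log10 q, 0 of 80 genes were touched. The 4 regions reached at most 1.93, near the aged list's median of 1.72, so such cuts remove them along with many others. The share of all genes under these cuts was not computed. Rps21 carried H3K4me3 in both lists, Rpl19 in the young list and Rpl10a in neither. Just outside the limit were Rps19 (1093 bp) and Rpl38 (1723 bp).

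Other families of the protein machinery stood close to these values. Of 78 genes for mitochondrial ribosomal proteins, 48 were marked by H3K4me3 in young (61.5%) and 32 in aged HSCs (41%), with 23 at both ages, none by H3K27me3 and 4 by H2AK119ub1 in aged HSCs. Of 40 proteasome subunit genes, 29 (72.5%) and 20 (50%) carried H3K4me3, with 15 at both ages, 1 carried H3K27me3 in young and none in aged HSCs, and none carried H2AK119ub1. The intervals of both families overlapped those of the cytosolic ribosomal protein genes in each list. Of 8 cytosolic ribosomal proteins or near copies that the symbol rule left out, 5 and 4 were marked, Fau (4.04-fold and 5.53-fold), Rack1 (5.04-fold and 4.52-fold), Rpl22l1 and Rpl7l1 at both ages and Rpsa (4.68-fold) in the young list only. Of 14 other genes whose mRNAs carry a TOP tract, 11 and 8 were marked, among them the elongation factor genes Eef1a1 (3.46-fold and 3.31-fold) and Eef1g (6.16-fold and 3.98-fold), whereas Eef2 was marked in neither. Of 20 genes for ribosome assembly, 15 (75%) were marked in young and 6 (30%) in aged HSCs, 5 of them at both ages, and these shares have no test against those of the ribosomal protein genes.

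By promoter feature, all 7 ribosomal protein genes with the YY1 motif (Rpl13a, Rpl18, Rpl23a, Rpl34, Rpl35a, Rps27 and Rps28) carried H3K4me3 in the aged list and 5 did in the young list. Of all 693 genes with that motif, 42.6% were marked in aged and 62.3% in young HSCs. This was noticed after the values were seen and rests on 7 genes (95% Wilson interval 64.6 to 100). Genes with the TOP tract at the GENCODE start were marked in 11 of 19 cases in each list (57.9%), beside 35.6% in young and 25.2% in aged HSCs for all genes with it. With the ETS core, 13 of 22 (59.1%) were marked in young and 11 (50%) in aged HSCs, beside 59.4% and 41.3% of all genes with it, and with GGGCGG 28 of 40 (70%) and 17 (42.5%), beside 49% and 33.4%. The median CpG ratio was 0.855, 0.838 and 0.87 for genes marked at both ages, in the young list only and in the aged list only, and 0.822 for genes marked in neither.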

How the data were processed

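ChIP-seq libraries were made from sorted HSCs. Per the study's methods, chromatin was cut with MNase and sonication and reads were aligned to mm10 with Bowtie2 at default settings, without a stated rule for reads that match several copies of a gene, and the labels name MACS2 2.2.6. The authors deposited 1 narrow H3K4me3 list and 1 broad H3K27me3 and H2AK119ub1 list per age, each named as pooled in the deposit, with the libraries behind each and the calling command not given in the sources used here. Each deposited list gives a fold enrichment ratio over local background, a score that is the −log10 p-value, and a −log10 q-value for each peak.

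Start sites were those of protein-coding transcripts in the GENCODE M21 basic annotation (21851 genes on chromosomes 1 to 19, X and Y). A promoter spanned 1 kb on either side, and 1 bp of overlap counted. A gene's peak was that with the highest −log10 q. Summit reads and background were solved from fold, taken as (reads + 1) / (background + 1), and Poisson p, and every H3K4me3 peak matched within 0.001 in −log10 p. Both steps were tested on simulated data. Shares carry 95% Wilson intervals and medians order-statistic intervals, which cover counting error only. No p-values were computed, since no list has a replicate. Python 3.11.15 with pandas 2.3.3 and scipy 1.17.1 was used.

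Genes named with values were the 3 highest and 3 lowest by −log10 q per age, all with a Polycomb mark, all without H3K4me3, the leading 3 marked at 1 age, the 3 widest, those nearest the limit, and the paralog and Diamond-Blackfan lists. Members and lists were chosen with earlier results of these data known. Of 279 pseudogenes named after ribosomal proteins, 0 were overlapped by H3K4me3 in either list. Some genes are not reported here by name.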

Additional observations from a re-analysis of the deposited data

How the results depend on the processing

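No paired analysis was possible because only 1 list was given per mark and age. The 12 counts and medians were recomputed under up to 7 alternatives each. Of the 76 values 69 stayed within 1.5 times the count or within the interval of the median. Part of this was fixed in advance: a count of 0 could not change where a setting only removed peaks, bases of the window, overlaps or starts. The young minus aged H3K4me3 count was the only difference among the results, and its direction did not turn. A −log10 q of at least 4 left 17 ribosomal protein genes with H3K4me3 at both ages in place of 26. The share of all genes fell too, from 17.5% to 9.84%. With both H3K4me3 lists at equal length, the difference between young and aged counts, a result added after seeing the data, was 5 in place of 15. Aged H2AK119ub1 touched 4 genes, and 0 with a half-width of 500 bp, 0 with a −log10 q of at least 4, 0 with both lists at equal length and 7 with a half-width of 2 kb, which added Rpl32, Rpl38 and Rps19. The share of all genes with H2AK119ub1 was not computed under these settings. Start sites of all transcripts gave 1 gene with young H3K27me3, Rps4x, in place of 0. Each of these settings changed the peaks, the window or the starts that were counted, and no other cause was tested.

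Sequencing depth per library is not given in the lists, and summits of 15 to 32 reads limit how well folds of single genes can be told apart. Absence from a list cannot be told apart from a peak under the threshold. Age cannot be told apart from differences in depth or list length between the lists.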
